A study of Mus musculus with 5 samples.

Results

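The genes described are 7 drivers and inhibitors of the cell cycle, taken as every probe annotated as Ccnd1, Ccna2, Cdk4, Cdk5, Cdkn1a, Pcna or Rb1 on an expression array of soleus, a slow calf muscle. Each of the 7 had 1 probe, so they are 7 of the 203 named genes and 7 of the 223 probes on the array. The samples were soleus muscles of 5 C57Bl/6 mice whose titles carry the tag wt. All 5 were reloaded mice, at day 7 of reloading per the series title, and the titles number them 1, 3, 4, 5 and 6. The labels used here give neither age nor sex, and they name no second group. Reloading means that these muscles had been unloaded before. Muscle taken while still unloaded, or left untreated, is not analysed here. What follows compares the mice with each other and describes which of the genes gave a signal.

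A cell enters the division cycle when growth signals raise D-type cyclins, which bind the kinases Cdk4 and Cdk6. These complexes phosphorylate the retinoblastoma protein Rb1, which releases E2F transcription factors and opens the way from G1 into S phase. Cyclin A2 (Ccna2) and the replication clamp Pcna then act during DNA synthesis, while Cdkn1a, known as p21, inhibits cyclin-kinase complexes and binds Pcna. Muscle fibres have left the cycle for good, and in muscle that is loaded or injured the dividing cells are satellite cells, which are the muscle stem cells, together with endothelial, interstitial and immune cells. In such bulk RNA, fewer cells of a type and less RNA per cell cannot be told apart.

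The values are linear array intensities in arbitrary units, and values of different probes are not compared with each other, since the signal of a probe depends on its sequence. A pair of background yardsticks was read from each array. One is the size of its lowest, negative value, which ran from 0.0041 for mouse 4 to 0.0168 for mouse 1. The other is 3 times a background SD, taken from the values below 0, which ran from 0.00642 to 0.0269. Array totals ran from 70.8 to 137 with mice 1 and 6 brightest. The array of mouse 1 stood apart. Its mean rank correlation with the other arrays, across the probes above 0 on all 5, was 0.878 against 0.941 to 0.947 for the rest. The Cdkn1a ratios, the G1 and Pcna deviations and the CVs of Cdkn1a, Pcna and Rb1 are therefore also given without it. The comparison of patterns over the mice is not. All 7 muscle fibre markers on the array (Myh7, Myh2, Myh1, Myh4, Mb, Des and Cox6a2) lay above the first yardstick in every mouse, against 45.3% of all probes. They were read as markers of skeletal muscle, not of soleus in particular.

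The 3 genes of G1 lay above 0 in every mouse, while of the 2 S-phase genes Pcna did and Ccna2 did not. Ccnd1 of G1 and Pcna each exceeded the size of the lowest value in 4 mice. Ccnd1 exceeded 3 background SDs in 3 mice and Pcna in 4. Counting a value above 0 on all 5 arrays as a signal, 5 of the 7 genes had one, namely Ccnd1, Cdk4, Rb1, Pcna and Cdkn1a. Probes above 0 on all 5 arrays are called measured in all mice below, although some of their values lay near background. This was the case for 147 of all 223 probes, or 65.9%, so 5 of 7 is close to the share of the whole array. Above the size of the lowest value on all 5 arrays there remained 2 genes, Cdk4 and Rb1, against 45.3% of all probes. Those 2 were also the ones above 3 background SDs in every mouse, against 41.3% of all probes. All 7 were above 0 on at least 1 array, as were 92.4% of all probes.

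**Figure D1:**
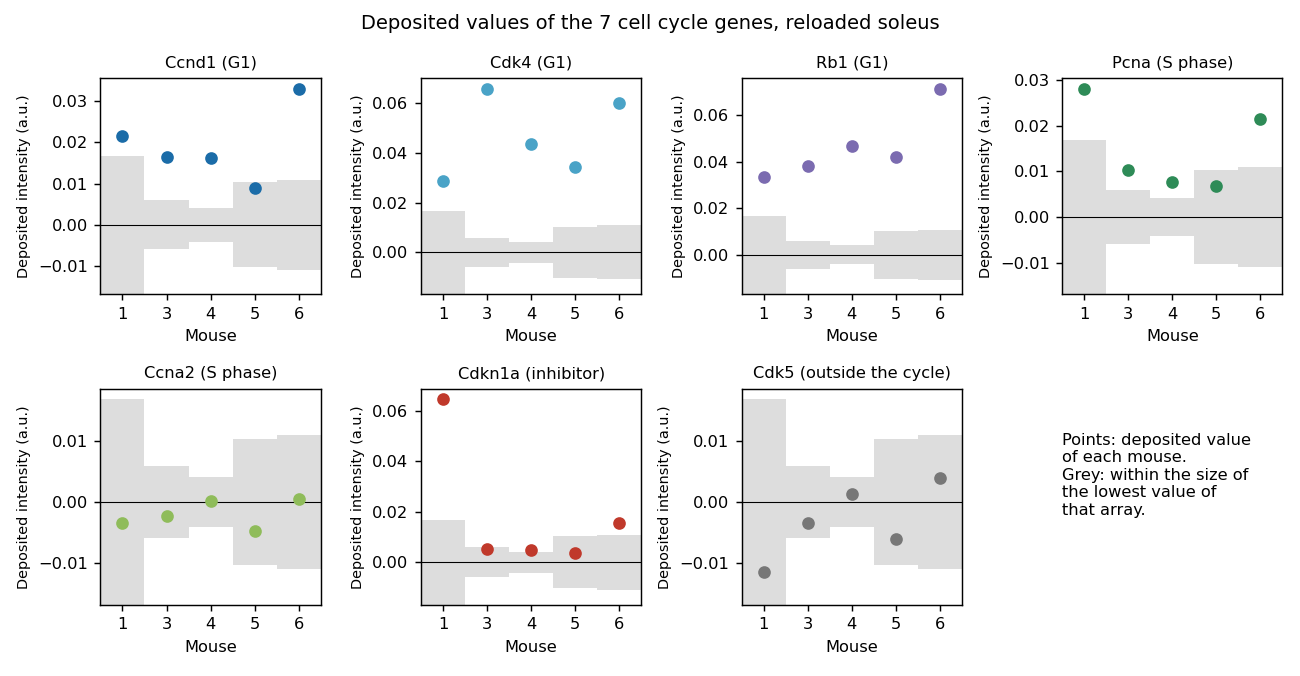
Deposited intensity (arbitrary units, linear axis, own range per panel) of each of the 7 genes by mouse, 1 point per mouse. The grey band marks values no larger than the size of the lowest value of that array. Cdk4 and Rb1 lie above the band in all 5 mice, Ccna2 and Cdk5 lie inside it in all 5, and Cdkn1a stands clear of it by far in mouse 1.

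Ccnd1, cyclin D1, is the growth-factor-responsive cyclin of G1. Its deposited values were 0.0216, 0.0164, 0.0161, 0.0090 and 0.0330 in mice 1, 3, 4, 5 and 6. Mouse 6 was highest and mouse 5 lowest, and mouse 5 was the mouse in which Ccnd1 did not exceed the size of the lowest value of the array, 0.0103. Ccnd1 exceeded 3 background SDs in 3 mice, and fell short in mouse 5 and in mouse 1, where the limit was 0.0269. Once arrays were set to a common distribution by quantile normalisation, mouse 5 was still lowest and mouse 4 became highest. The distances shrank, to a level of 0.0179 ± 0.00140 (SD, n = 5) with values from 0.0167 to 0.0196.

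Cdk4, the kinase partner of D-type cyclins, had deposited values of 0.0286, 0.0658, 0.0435, 0.0345 and 0.0599 in mice 1, 3, 4, 5 and 6. It was highest in mouse 3 and lowest in mouse 1, as it also was after quantile normalisation and after dividing each array by its median or total. The normalised level was 0.0469 ± 0.0167 (SD, n = 5). The 250 bases upstream of the start of Cdk4 are shown because it is 1 of the 3 members for which a sequence window was found. Capitals mark 4 copies of CACGTG, the E box read by Myc and related factors, and 1 GC box (GGGCGG, here on the reverse strand). The stretch is chr10:127063285-127063534 on the plus strand of GRCm38.p6, from RefSeq.

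Cdk4: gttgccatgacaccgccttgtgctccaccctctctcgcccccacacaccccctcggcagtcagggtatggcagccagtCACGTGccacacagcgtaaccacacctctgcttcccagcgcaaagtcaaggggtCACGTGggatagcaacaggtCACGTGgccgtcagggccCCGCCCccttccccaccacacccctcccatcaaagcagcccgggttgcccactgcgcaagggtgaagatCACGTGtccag

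An E box of these letters was present in 6.02% of 32851 windows of the same length upstream of mouse genes, and a GC box in 32.7%, with both strands searched. The E boxes and the GC box do not overlap. No factor or mark was measured at these sites.

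Rb1, the brake on entry into S phase that cyclin D-Cdk4 complexes inactivate, had deposited values of 0.0335, 0.0382, 0.0466, 0.0420 and 0.0713 in mice 1, 3, 4, 5 and 6. Mouse 1 was lowest and mouse 6 highest. After quantile normalisation mouse 1 stayed lowest, at 0.0335, and mouse 4 was highest, at 0.0561, around a level of 0.0458 ± 0.00935 (SD, n = 5). The ratio of Rb1 to Cdk4 on the same array, which is free of any scale factor, lay 0, -1.01, -0.13, 0.06 and 0.02 log2 units from its 5-mouse median in mice 1, 3, 4, 5 and 6. Cdk4 and Rb1 thus stood in nearly the same proportion in mice 1, 4, 5 and 6, and in mouse 3 Cdk4 was ahead.

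Pcna, the sliding clamp of DNA polymerases, is used both in replication and in DNA repair. Its deposited values were 0.0281, 0.0104, 0.0077, 0.0068 and 0.0215 in mice 1, 3, 4, 5 and 6. Mice 1 and 6 were high and the other 3 were at 0.0104 or less. In mouse 5 the value was under the size of the lowest value of the array. The normalised level was 0.0138 ± 0.00649 (SD, n = 5), and the value of mouse 1, 0.0248, lay outside the span of the other mice, 0.00782 to 0.0128.

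Ccna2, the cyclin that drives S phase and entry into mitosis and is made in dividing cells, had deposited values of -0.0034, -0.0023, 0.0001, -0.0048 and 0.0005 in mice 1, 3, 4, 5 and 6. It was above 0 in 2 mice and above neither yardstick in any. Its signal was not detectable on these arrays, which bounds the level by the background and says nothing on whether the transcript was absent. Top2a, a topoisomerase made in S and G2 phase, behaved similarly in detection, above 0 in 3 mice and above the size of the lowest value in 0.

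Cdk5 is a cyclin-dependent kinase activated by its own non-cyclin partners, best known from neurons and not as a driver of the cycle. Its deposited values were -0.0115, -0.0034, 0.0014, -0.0060 and 0.0039 in mice 1, 3, 4, 5 and 6. As for Ccna2, 2 mice were above 0 and none exceeded the size of the lowest value of its array.

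Cdkn1a was by far the most uneven of the 7 genes, with a high signal in mouse 1 and values near background in 3 of the other mice. Cdkn1a, p21, is induced by p53 after DNA damage, and it is also raised when myoblasts leave the cycle and differentiate. Its deposited values were 0.0645, 0.0052, 0.0047, 0.0037 and 0.0155 in mice 1, 3, 4, 5 and 6. Mouse 1 was highest, mouse 6 came next, and mice 3, 4 and 5 were close together. In mice 3 and 5 the value was below the size of the lowest value of the array, and it exceeded 3 background SDs in mouse 1 alone. The value of mouse 1 was 3.84 times the size of its array's lowest value, and that of mouse 6 was 1.42 times its own.

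The 250 bases before the 2 annotated starts of Cdkn1a, and before that of Pcna, are shown because these 2 genes were the other members with a sequence window. In Cdkn1a, capitals mark GC boxes (GGGCGG) and the TATA box letters TATAA on either strand. They also mark an inverted pair of sites of the kind that p53 binds, searched as CATGT with its reverse complement starting 4 bases after it ends. In Pcna, capitals mark GC boxes and CCAAT, here as its reverse complement. All sequences are from RefSeq on GRCm38.p6. The first Cdkn1a window is chr17:29090729-29090978 and the second chr17:29093519-29093768, both on the plus strand, and the Pcna window is chr2:132253181-132253430 on the minus strand.

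Cdkn1a, first start: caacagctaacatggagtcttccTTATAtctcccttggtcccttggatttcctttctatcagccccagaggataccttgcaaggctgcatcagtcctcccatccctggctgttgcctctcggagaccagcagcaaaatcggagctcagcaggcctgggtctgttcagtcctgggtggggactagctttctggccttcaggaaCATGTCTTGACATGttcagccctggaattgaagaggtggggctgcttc
Cdkn1a, second start: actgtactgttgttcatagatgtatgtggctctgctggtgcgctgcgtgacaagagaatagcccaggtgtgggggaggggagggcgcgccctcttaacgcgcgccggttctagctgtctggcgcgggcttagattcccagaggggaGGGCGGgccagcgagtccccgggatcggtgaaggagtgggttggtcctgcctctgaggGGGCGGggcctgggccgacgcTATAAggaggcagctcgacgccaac
Pcna: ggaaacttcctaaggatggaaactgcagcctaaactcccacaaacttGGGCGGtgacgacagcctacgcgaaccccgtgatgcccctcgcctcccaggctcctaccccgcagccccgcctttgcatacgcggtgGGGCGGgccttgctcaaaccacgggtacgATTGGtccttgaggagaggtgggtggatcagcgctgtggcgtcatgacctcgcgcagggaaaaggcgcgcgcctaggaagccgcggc

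With both strands searched, this pair was present in 36 of the 32851 windows, or 0.110%, and in Cdkn1a it lay 48 to 35 bases before the first start. TATAA was present in 22.8% of windows and lay 25 to 21 bases before the second Cdkn1a start. CCAAT was present in 33.9%. None of the marked motifs overlapped another. These matches describe the letters in the windows, and nothing in these arrays measured p53 or its binding. Sequence windows were found for 3 of the 7 members.

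Relative to the other mice, the Cdkn1a signal of mouse 1 was further up than that of any other probe measured in all mice. Normalised levels were 0.0563, 0.00398, 0.00309, 0.00782 and 0.00984 in mice 1, 3, 4, 5 and 6. Mouse 1 was thus 10.1-fold above the median of the other 4 and 5.72-fold above mouse 6. The fold over the median of the other 4 was 13.0 as deposited, 10.5 with arrays divided by their median and 7.35 by their total. In each of these 4 scalings 0 of the other 145 probes lay further up in mouse 1. A highest mouse at least 2-fold above the next was found for 8 of 146 probes (5.48%), and Cdkn1a was the 1 member among them. As deposited the same held for 20 probes (13.7%), divided by the array median for 8 (5.48%) and divided by the array total for 4 (2.74%), with Cdkn1a again the 1 member each time. The folds against mice 3, 4 and 5 have near-background values as denominators and are uncertain in size. The distance to mouse 6 was 4.16-fold as deposited and ran from 3.97 to 5.91 over the 4 scalings, and the value of mouse 6, 0.0155, was itself under 3 background SDs of its array, 0.0165.

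**Figure D2:**
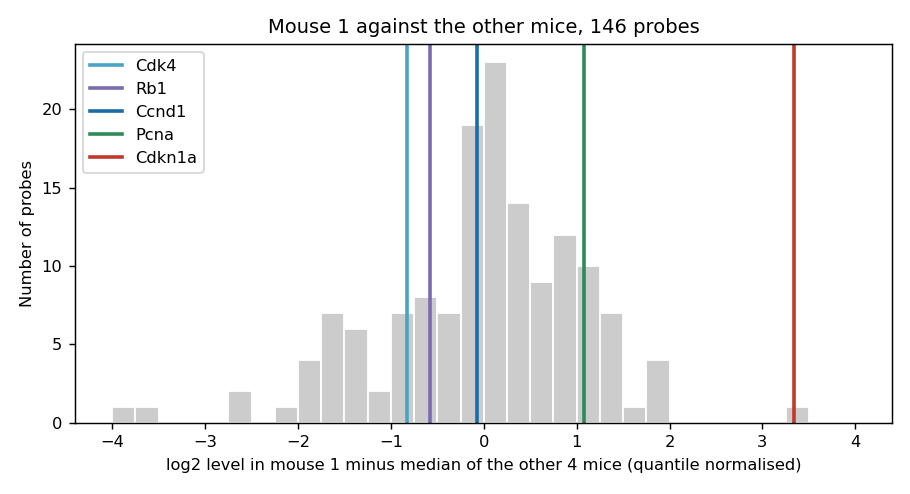
Histogram of the log2 normalised level in mouse 1 minus the median of the other 4 mice (x axis) over 146 probes (y axis, number of probes), with vertical lines at the 5 members above 0 in every mouse. Cdkn1a is at the far right end, at 3.34, Pcna is at 1.08, Ccnd1 is at -0.07 near the centre, and Rb1 and Cdk4 are at -0.58 and -0.82.

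In mouse 1 the other members stood well below Cdkn1a in their distance from the other mice. The nearest was Pcna, at 2.11-fold the median of the other 4 mice after quantile normalisation, with 18 of the 146 probes above it. Ccnd1 was at 0.954-fold, and its side of the other mice depended on the scaling, with 1.33-fold as deposited, 1.07-fold by array median and 0.749-fold by array total. Cdk4 was at 0.566-fold and Rb1 at 0.670-fold, and both were also below the median of the other mice in the other 3 scalings. The median probe of the array was at 1.06-fold, or 1.37-fold as deposited, 1.21-fold by array median and 0.853-fold by array total.

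The ratio of Cdkn1a to each of the 3 genes it acts with or on was highest in mouse 1. A ratio on 1 array removes any scale factor, and since its absolute size depends on the pair of probes, it is given as the log2 distance from the median of the 5 mice, from deposited values. Relative to Ccnd1, the distances of Cdkn1a were 2.86, -0.37, -0.49, 0 and 0.19 for mice 1, 3, 4, 5 and 6. Mouse 1 lay 3.05 above the median of the other 4, or 8.27-fold, and the other 4 spanned 0.69.

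Relative to Cdk4, the distances were 4.38, -0.45, 0, -0.01 and 1.26 in the same order. The distance of mouse 1 from the median of the other 4 was 4.39, or 21.0-fold, the widest of the 3 ratios, since Cdk4 was at its lowest where Cdkn1a was at its highest. Without mouse 1 the ratio still spanned 1.71, with mouse 6 on top.

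Relative to Pcna, they were 1.91, -0.29, 0, -0.17 and 0.24. The distance of mouse 1 was 1.99, or 3.98-fold, the narrowest of the 3, and the other 4 mice spanned 0.53. Pcna itself was high in mouse 1, and Cdkn1a was further up there than Pcna.

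Small values make these ratios sensitive to the background. With the size of the array's lowest value added to both genes, the distance of mouse 1 was 1.95 against Ccnd1, 2.90 against Cdk4 and 1.22 against Pcna. With values below that size raised to it, the distances were 2.86, 3.75 and 1.79. Mouse 1 was highest in all of these, and the order of the other 4 was not stable. Mouse 5, where Cdkn1a, Ccnd1 and Pcna were all under the size of the lowest value, gives no usable proportion between them. The Ccnd1 value of mouse 1, on which its 8.27-fold distance rests, was also below 3 background SDs.

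**Figure D3:**
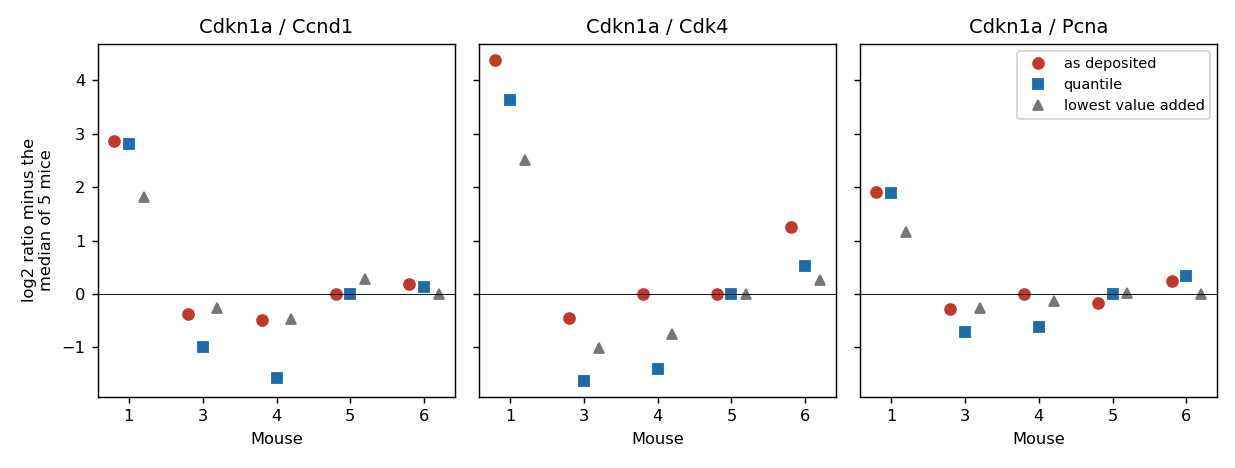
Log2 ratio of Cdkn1a to Ccnd1, Cdk4 and Pcna on each array minus the median over the 5 mice (y axis) by mouse (x axis), from deposited values (circles), quantile normalised values (squares) and deposited values with the size of the array's lowest value added (triangles). Mouse 1 is the top point in every panel and for every kind of value, from 1.15 for Pcna with the lowest value added to 4.38 for Cdk4 as deposited.

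In mouse 1 the G1 mean and the S-phase gene Pcna lay on opposite sides of their 5-mouse means. After quantile normalisation they also did in mice 3 and 4, the other way round. The mean log2 deviation of the 3 G1 genes from their own 5-mouse means was -0.41, 0.14, 0.19, 0.06 and 0.01 in mice 1, 3, 4, 5 and 6, while Pcna, the S-phase gene measured in all mice, was at 0.95, -0.25, -0.71, 0.00 and 0.00. In mouse 1 the G1 mean stayed below 0 under all 4 scalings, from -0.74 to -0.25, and Pcna above 0, from 0.65 to 1.15. The G1 mean rests on Cdk4 and Rb1 there, at -0.73 and -0.43, since Ccnd1 was at -0.06 and changed sign with the scaling. As deposited, both groups were above their means in mouse 6, at 0.67 and 0.76, and below in mouse 5, at -0.47 and -0.90. The median probe moved the same way, to 0.59 in mouse 6 and -0.42 in mouse 5. Without mouse 1, the normalised G1 mean was at 0.09, 0.07, -0.04 and -0.12 in mice 3, 4, 5 and 6. Pcna was then at 0.09, -0.505, 0.24 and 0.18. The ratio of Pcna to Ccnd1, free of scaling, was 1.00 above its 5-mouse median in mouse 1 and between -0.45 and 0.21 from it in the others. That of Pcna to Cdk4 was 2.32 above in mouse 1 and 0.86 above in mouse 6, both from deposited values. Quantile normalised values gave 1.74 and 0.19 for Pcna to Cdk4. With the size of the array's lowest value added, they were 1.37 and 0.26, and Pcna to Ccnd1 was 0.66 above in mouse 1.

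**Figure D4:**
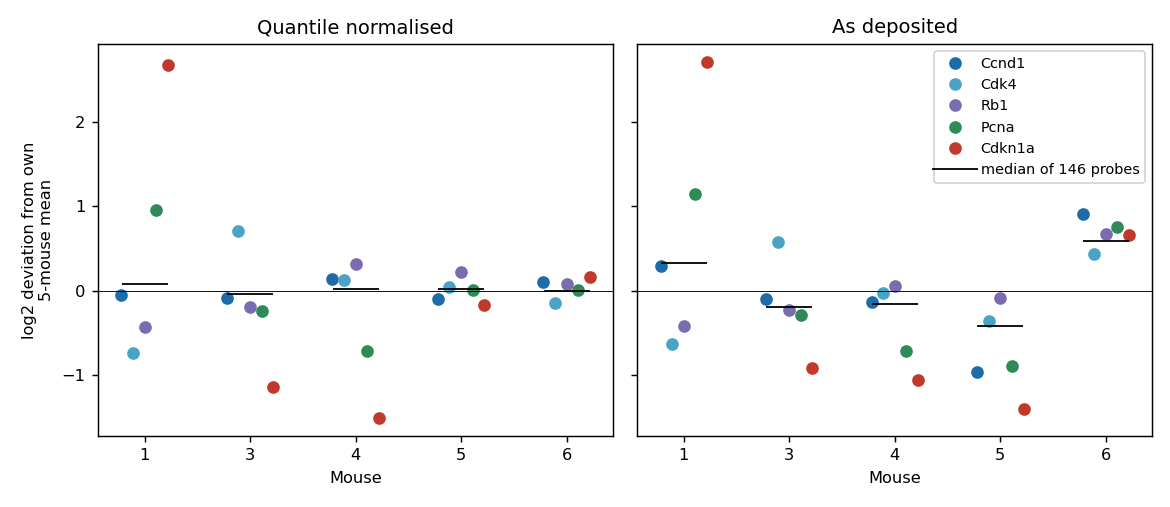
Log2 deviation of each of the 5 genes above 0 in every mouse from its own 5-mouse mean (y axis) by mouse (x axis), quantile normalised at left and as deposited at right, with a black dash at the median of 146 probes. In mouse 1, Cdkn1a and Pcna lie above the dash and Cdk4 and Rb1 below it in both panels, and as deposited all 5 genes of mouse 6 lie above 0, as does the median probe.

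Spread between mice set Cdkn1a and Ccnd1 at opposite ends after quantile normalisation. The coefficient of variation (CV, which divides the SD by the mean on the linear scale, in percent) was 139% for Cdkn1a, the widest of 146 probes, and 7.80% for Ccnd1, with 5 probes narrower. It was 46.9% for Pcna, 35.6% for Cdk4 and 20.4% for Rb1, against a median of 33.1% over the 146 probes. Cdkn1a stayed widest under the other 3 scalings, at 118% to 139%, and was at 50.5% without mouse 1. The narrow spread of Ccnd1 was bound to the normalisation, with 46.4% as deposited, where the median probe was at 45.4%, 21.4% by array median and 29.9% by array total. Pcna was at 21.1% and Rb1 at 13.1% without mouse 1. With single arrays per mouse, these CVs hold measurement noise and differences between animals together.

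**Figure D5:**
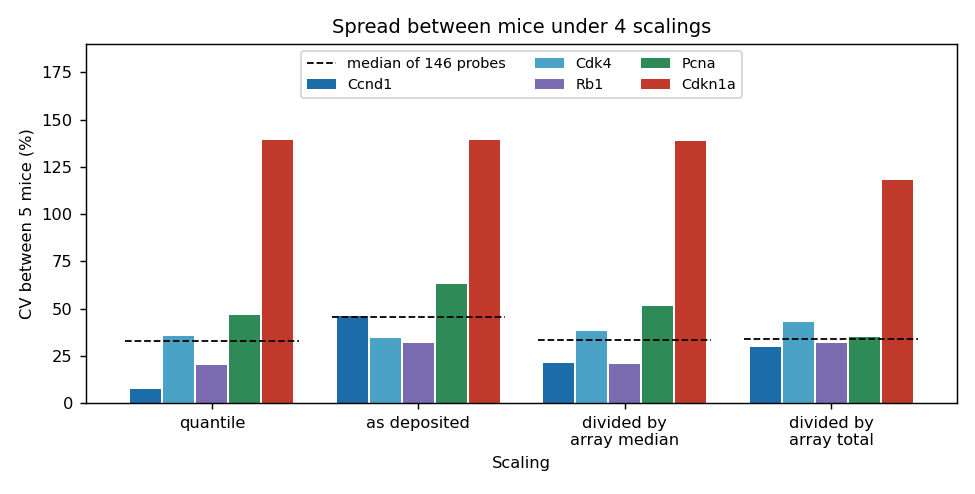
Bars give the CV between 5 mice in percent (y axis, from 0) of the 5 genes above 0 in every mouse under 4 scalings (x axis), with a dashed line at the median of 146 probes in each. Cdkn1a is at 118% or more throughout, and Ccnd1 moves from 7.80% with quantile normalisation to 46.4% as deposited.

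Pattern over the 5 mice was compared by the root mean square difference of log2 deviations, over the 139 other named probes measured in all mice. The nearest to Cdkn1a were Csf2ra, a cytokine receptor chain, at 0.74, Igfbp4, an IGF-binding protein, at 0.89, and Ctsh, a lysosomal protease, at 0.91, against a median of 1.49 over all these probes. Pcna came 4th at 0.94, while Ccnd1 was 74th, Rb1 101st and Cdk4 117th. The same 3 genes, and Pcna as the 4th, were nearest with deposited values. Cdkn1a deviated most in mouse 1, by 2.67, and the ranking was not repeated without that mouse. Csf2ra had deposited values of 0.0447, 0.0078, 0.0103, 0.0059 and 0.0191 in mice 1, 3, 4, 5 and 6, again high in mouse 1 and next in mouse 6. For Ccnd1 the nearest genes changed with the scaling, from Cd34, Aldoa and Cox6a2 with quantile normalisation to Hmox1, Egfr and Fgfr1 with deposited values.

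Other genes of replication and of the cycle on the array were also read. Of 8 genes of DNA replication and topoisomerases, a group collected by name once the probe list was known, 5 (Pold1, Pole2, Top1, Top3a and Top3b) were above 0 in all mice and 1, the polymerase subunit gene Pole2, was above the size of the lowest value in all. Of all probes, 65.9% were above 0 in all mice and 45.3% above the size of the lowest value in all. Pole2 had 0.0776, 0.0449, 0.0276, 0.0683 and 0.0811 in mice 1, 3, 4, 5 and 6, lowest in mouse 4. In mouse 1 the 5 genes went both ways. Against the median of the other 4 mice, Top3b was at 1.82, Pole2 at 0.39 and Top1 at 0.09 on the normalised log2 scale, while Pold1 was at -1.82 and Top3a at -2.60. The deposited values of Pold1 and Top3a there, 0.0073 and 0.0009, were below the size of the array's lowest value, as was that of Top1, 0.0102. Ccna1, the A-type cyclin best known from germ cells, was above the size of the lowest value in every mouse, at 0.0595, 0.145, 0.133, 0.123 and 0.276, with mouse 1 lowest and mouse 6 highest. Cdkn2d, an inhibitor of Cdk4 and Cdk6, had 0.0291, 0.0137, 0.0121, 0.0091 and 0.0245, with mice 1 and 6 high as for Pcna and Cdkn1a. Mouse 1 was not far above mouse 6 as deposited, as for Pcna, where it was 1.31-fold above. After quantile normalisation, Cdkn2d in mouse 1 was 0.93 log2 units above the median of the other 4 mice, and Pcna 1.08.

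Upstream of Ccnd1, 9 of the 12 growth factor and receptor genes of the list on the array were above 0 in all mice and 5 (Igf1, Igf2, Egfr, Fgfr1 and Pdgfrb) above the size of the lowest value in all. The shares of all probes, 65.9% and 45.3%, were near these. Over the probes of the 9 genes, with Igf1 entering through both of its probes, the mean deviation was 0.27 for mouse 1 and -0.28 for mouse 3. Ccnd1 was at -0.06 and -0.08 there. Fgf2, part of these means, was above the size of the lowest value on 1 array only. Among the 7 myogenic regulators on the array, Myod1, which raises Cdkn1a in differentiating myoblasts, was at -0.0088 in mouse 1 and between 0.0060 and 0.0219 in the other mice. Myog, the regulator of terminal differentiation, had 0.0191, 0.0294, 0.0152, 0.0197 and 0.0496. The Myod1 value of mouse 1 was within the size of its array's lowest value, 0.0168, which is also above the Myod1 values of mice 3, 4 and 5. The part of either gene in the Cdkn1a values was not tested.

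Markers of other cell types were read in each mouse, and their part in the Cdkn1a value of mouse 1 was not tested. Of the 4 immune cell markers on the array, Il1b, Il6 and Csf3r were at or below 0 in every mouse, and Btk was at -0.0091 in mouse 1 and between 0.0081 and 0.0230 in the others. Btk exceeded the size of the lowest value in 3 mice, not in mice 1 and 5, so these markers cannot rank mouse 1 for immune cells. Csf2ra, whose pattern was nearest to that of Cdkn1a, was not in this marker list. The summed deposited signal of the 6 endothelial markers, all above 0 in every mouse, was 0.416 in mouse 1 and between 0.369 and 0.876 in the others. Their mean deviation in mouse 1 was -0.90 normalised and -0.78 as deposited. These means lean on Flt1 and Tek, at 0.0030 and 0.0019 there, below the size of the array's lowest value. Against the normalised median of the other mice, Flt1 was at -3.77 and Tek at -1.62 log2 units. Pecam1 was at -0.76, Cdh5 at -0.56, and Cd34 and Kdr at -0.09 each. Of the 2 fat cell markers, Lipe was at or below 0 in every mouse and Fabp4 was 0.228 in mouse 1 and 0.131 to 0.205 in the others. The 7 muscle fibre markers summed to 22.2 in mouse 1 and to between 13.4 and 19.5 in the others. Mouse 1 also had the highest total signal and the largest background of the 5 arrays, and the part of the array in its Cdkn1a value was not tested. The probes whose identifiers adjoin that of Cdkn1a, 1 step away in number or letter, were also high in mouse 1. These 8 probes (Igfbp3, Igfbp4, Igfbp5, Cdkn2d, Pcna, Top3b, Fabp4 and Aldoc) were all above the median of the other 4 mice after quantile normalisation, by 0.28 to 1.82 log2 units with a median of 1.00. The median of all 146 probes was 0.09, and 53.4% of them were above 0. Divided by array total, 7 of the 8 were above 0, against 38.4% of all 146 probes. As deposited 8 of 8 were, against 69.2%, and by array median 8 of 8, against 62.3%. By array median, 7 of the 8 lay above the median probe, and all 8 did in the other scalings. Pcna and Igfbp4, whose patterns were among the 4 nearest to that of Cdkn1a, are among these 8. The labels do not say whether identifiers give positions on the array, and the part of position in the Cdkn1a and Pcna values was not tested.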

How the data were processed

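Soleus RNA of 5 reloaded mice, 3 microgram each per the labels, was measured on 5 arrays. The authors deposited linear intensities for 223 probes, some slightly below 0. The labels and the file name no scanner, background correction or scaling step. Precision is limited by the number of arrays. Probes were named through the platform annotation, and all 7 members were found by identifier in the RefSeq table of GRCm38.p6.

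Detection was read from deposited values. Levels and spreads used log2 values of the 147 probes above 0 on all 5 arrays, quantile normalised between arrays. The 1 probe brightest on every array was left out of medians and ranks, leaving 146. Ratios used deposited values. With 1 group and no repeat arrays, no test between groups or of spread was made and no p-value is given. Sets of 5 values were checked for a mouse far from the rest with Dixon's ratio. All 7 members were named, with the 3 nearest patterns to Cdkn1a and to Ccnd1 and genes of fixed lists. Members and lists were chosen with earlier results of these data known. Whether the mice are separate draws from a wider population is not stated in the labels, so the spread describes these samples. Alternatives were other scalings, stricter detection, an added background and leaving out each mouse. The scripts were tested on simulated data. Python 3.11.15, numpy 2.4.6, pandas 2.3.3 and matplotlib 3.10.9 were used.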

Additional observations from a re-analysis of the deposited data

Results flagged for a closer look

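Of 10 sets of 5 values checked (the 7 members and 3 ratios), 3 had 1 mouse far from the rest, all of them mouse 1 and all holding Cdkn1a, so they are not independent. The gap of mouse 1 to the next mouse was 0.873 of the whole range for the normalised level of Cdkn1a, 0.795 for the log2 ratio of Cdkn1a to Ccnd1 and 0.760 for that of Cdkn1a to Pcna, against a critical value of 0.71. That value is meant to be passed by about 1 in 20 independent sets of normally distributed values chosen without sight of the data. The members were chosen with earlier results known, so the rate does not hold here and the ratio serves as a flag only. The ratio of Cdkn1a to Cdk4, at 0.646, and the level of Pcna, at 0.705, stayed below the critical value. These gaps depend on the values used, in comparisons added after seeing the data. The level of Cdkn1a was at 0.601 on the log2 scale, and, as deposited, at 0.806 on the linear and 0.499 on the log2 scale. The ratio to Ccnd1 was at 0.612 with quantile normalised values, 0.678 with the lowest value added and 0.470 with values raised to a floor, all below the critical value. The ratio to Pcna was at 0.597, 0.812 and 0.594 in the same order.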

How the results depend on the processing

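Cdkn1a was highest in mouse 1 in every setting that kept that mouse. The number of members with a signal in all mice was 5, and 2 when values had to exceed the size of the array's lowest value or 3 background SDs, and 5 with any mouse left out. The CV of Ccnd1 of 7.80% was 46.4% as deposited, 21.4% by array median and 29.9% by array total, and ran from 5.74% to 7.90% with a mouse left out. That of Cdkn1a ran from 50.5%, without mouse 1, to 147%. Leaving out a mouse, the distance of the highest mouse from the median of the others ran from 0.567 to 3.24 for Cdkn1a against Ccnd1, from 1.27 to 4.39 against Cdk4 and from 0.406 to 2.08 against Pcna, each lowest without mouse 1. Quantile normalised values gave 3.30, 4.34 and 2.21, close to the 3.05, 4.39 and 1.99 from deposited values, and adding the lowest value gave 1.95, 2.90 and 1.22. Raising low values to a floor, added after seeing the data, gave 2.86, 3.75 and 1.79. Of 80 recomputed group deviations by mouse 8 moved by more than 1 SD, and of 27 recomputed CVs of Cdk4, Pcna and Rb1 4 moved by over 1.5 times. Ccna2 and Cdk5 have no CV, as their values were at or below 0 in 3 mice. No paired analysis was possible because there is 1 group. Low signal limits Ccnd1, Pcna and Cdkn1a in mouse 5 and Cdkn1a in mouse 3, and by 3 background SDs also Ccnd1 in mouse 1 and Cdkn1a in mice 4 and 6.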
